A study of Mus musculus with 24 samples.

Results

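The small RNA of cauda epididymosomes was compared between mice given dibutyl phthalate (DBP) alone and mice given the vehicle. The libraries were chosen by their treatment label alone: 6 are labelled DBP at 2.5 mg/kg/day and 6 are labelled Control with 50% DMSO, which is 12 of the 24 libraries of the series. All were from male C57BL/6J mice aged 7 to 8 weeks that carried osmotic pumps for 6 weeks, and the controls, like the exposed mice, had a pump. The solvent of the DBP pumps is not stated apart from the 50% DMSO of the control label. The other 12 libraries came from mice given di(2-ethylhexyl) phthalate (DEHP) at 2.5 mg/kg/day, or DBP and DEHP at 2.5 mg/kg/day each, and served here for the estimate of spread and for values set beside those of DBP. Vesicles were taken on an affinity membrane (exoRNeasy) from cauda fluid after sperm had been pelleted, so the preparation is defined by that method and not by a vesicle marker. In such bulk libraries fewer vesicles of a type and less of an RNA per vesicle cannot be told apart.

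Epididymosomes are vesicles that epithelial cells of the epididymis shed into the lumen, where they fuse with or dock to passing sperm and hand over protein and RNA. The sperm of the cauda, the segment in which sperm are stored, hold many 5′ fragments of tRNAs, and epididymosomes are a known source of such fragments and of miRNAs. DBP is a plasticiser whose monoester is known as an antiandrogen in the fetal rat testis, and the epididymal epithelium depends on androgen.

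Reads on the 6 classes that the labels place in the mapping order (miRNA, tRNA, piRNA, rRNA, circRNA, lncRNA) numbered 9.84 to 14.7 M (1e6) per DBP library and 9.89 to 13.1 M per control library. The table named otherRNA, which holds antisense, small nucleolar and further transcripts, had 268839 to 503792 reads per DBP library and 379987 to 624203 per control library. Each group had its replicates 1 to 3 on sequencing lane 6 and the rest on lane 7, and lane values are given beside many of the pooled values below. Libraries 5 and 6 of both groups stood apart from libraries 1 to 4 in some features. One is tRNA-Met-CAT-2-1, at 1233, 947, 859, 884, 195 and 205 CPM (counts per 1e6 reads of the scaled library total) in DBP libraries 1 to 6, against 847, 907, 898, 947, 186 and 166 CPM in control libraries 1 to 6. The split took the same libraries of each group, and its log2 fold change for DBP was 0.09. No label says whether a number marks anything shared between groups, and p-values measure only the spread between these libraries.

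Of the miRNA entries, mature sequences are shown first because they can be read letter by letter. The following are the most read mature entries with a RefSeq match (GRCm38.p6), and miR-706, the only mature entry with an unadjusted p under 0.05. Capitals mark the seed, bases 2 to 8, which pairs with targets.
mmu-miR-2137: gCCGGCGGgagccccagggag
mmu-miR-6538: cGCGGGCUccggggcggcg
mmu-miR-3473b: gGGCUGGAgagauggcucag
mmu-miR-3473e: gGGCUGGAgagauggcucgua
mmu-miR-3963: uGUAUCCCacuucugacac
mmu-miR-706: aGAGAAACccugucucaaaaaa

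miR-2137, at chrX:72992113-72992133 (plus strand), was the most read mature entry, at 4638 ± 2688 CPM in DBP libraries and 4250.1 ± 2201 CPM in control libraries (SD, n = 6 each). Its log2 fold change for DBP over control was 0.03 ± 0.41 (SE), 0.47 on lane 6 and -0.48 on lane 7. The pair miR-3473b and miR-3473e shares the seed GGCUGGA. miR-3473b stood at 569.8 ± 229 CPM in DBP libraries and 542 ± 195 CPM in control libraries, and miR-3473e at 564 ± 249 CPM in DBP libraries and 539.7 ± 199 CPM in control libraries. The groups overlapped for each of these entries. miR-6538 ranged from 111 to 2391 CPM in DBP libraries and from 195 to 1208 CPM in control libraries. miR-709 varied little, at 219 ± 21.3 CPM in DBP libraries and 209 ± 35.3 CPM in control libraries. miR-706, at chr6:120034290-120034311 (minus strand), had a lowest, median and highest value of 21.8, 31.8 and 63.4 CPM in DBP libraries, against 32.2, 58.9 and 118 CPM in control libraries. The log2 fold change was -0.91 ± 0.43, with an adjusted p = 0.934 (edgeR quasi-likelihood test, Benjamini-Hochberg), and it was -1.23 on lane 6 and -0.53 on lane 7. It was singled out after its values were seen.

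No feature of any class differed between DBP and control at an adjusted p under 0.05 (edgeR quasi-likelihood test with lane as a term; 0 of 7454 features of the 6 classes, 0%, and 0 of 3732 otherRNA features, 0%). The smallest adjusted p was 0.934 in the 6 classes and 0.867 in otherRNA. An unadjusted p under 0.05 was reached by 367 features of the 6 classes (4.92%) and by 149 of otherRNA (3.99%), close to the share that a flat distribution of p gives. DESeq2 also called 0 features in either table, with 390 at p under 0.05 in the 6 classes. The criterion named in the labels, a fold change of at least 1.5 and a p under 0.01, here applied to the unadjusted p, was met by 54 features of the 6 classes (0.724%), 28 of them higher (0.376%) and 26 lower (0.349%) in DBP libraries. In otherRNA it was met by 13 (0.348%), 9 higher (0.241%) and 4 lower (0.107%). This balance depended on the setting. Scaling otherRNA by its library totals gave 12 higher and 2 lower, joining it with the 6 classes 6 and 5, fitting the 12 libraries alone 6 and 11, leaving out control replicate 3 gave 6 and 8, and leaving out control replicate 4 gave 21 and 24. DBP and control libraries did not overlap for 8 features of the 6 classes (0.107%) and for 3 of otherRNA (0.0804%). For the median feature the 95% interval of the log2 fold change reached 0.615 to either side, a 1.53-fold change, and features with less spread had narrower intervals.

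**Figure D1:**
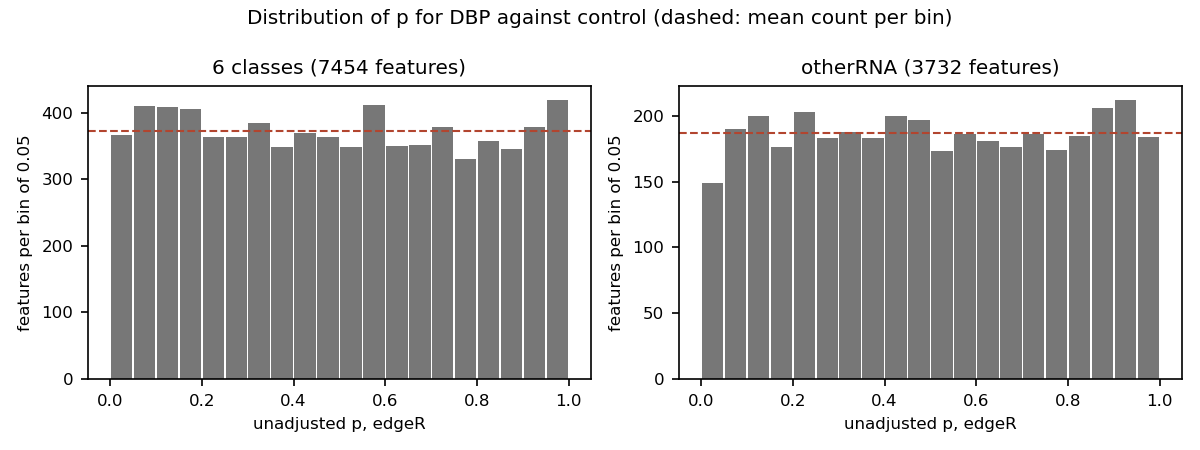
Number of features (vertical axis) per bin of unadjusted edgeR p (horizontal axis, bins of 0.05) for DBP against control, in the 6 classes and in otherRNA; the dashed line is the mean over bins. The lowest bin holds 367 and 149 features and does not stand above the others.

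The effect of DBP was compared between lanes in a separate edgeR fit of the same counts, with a mean for every group on every lane. That fit also gave the lane values of the log2 fold changes. Its interaction contrast passed an adjusted p under 0.05 for 2 features of the 6 classes (0.0268%) and for 0 of otherRNA (0%). At an unadjusted p under 0.05 there were 563 (7.55%) and 196 (5.25%).

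The 7 class shares, taken as percent of the reads of the 6 classes, were tested by exact two-sided permutation of the labels within lane (400 arrangements, smallest possible p 0.005), and none passed after adjustment over the 56 single-value tests. Ribosomal RNA had the smallest p. Its share was 4.28, 5.89, 5.08, 4.05, 3.74 and 3.28% in DBP libraries 1 to 6, against 5.15, 5.28, 6.13, 4.82, 5.19 and 4.06% in control libraries 1 to 6. In DBP libraries 1 of 6 lay above the control mean, and the groups overlapped. The means were 4.39 ± 0.9502% in DBP libraries and 5.104 ± 0.672% in control libraries (SD, n = 6 each; exact p = 0.05, adjusted p = 0.986). The difference was -0.436 percentage points on lane 6 and -0.999 on lane 7.

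tRNA reads made up 43.8, 39.8, 35.1, 35.9, 27.7 and 33.96% of DBP libraries 1 to 6, against 38.1, 28.4, 34.5, 42.2, 30.5 and 28.3% of control libraries 1 to 6. The tRNA difference was 5.88 percentage points on lane 6 and -1.16 on lane 7 (exact p = 0.48 over both lanes). piRNA and miRNA shares also had opposite signs on the lanes. On lane 6 they differed by -3.12 and -1.32 percentage points, and on lane 7 by 1.395 and 0.7398 (exact p = 0.735 and 0.535 over both lanes). The shares of circRNA, lncRNA and otherRNA reads had exact p values of 0.375, 0.335 and 0.395. Shares of a fixed total are tied to each other, so a larger share of one class lowers the rest.

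**Figure D2:**
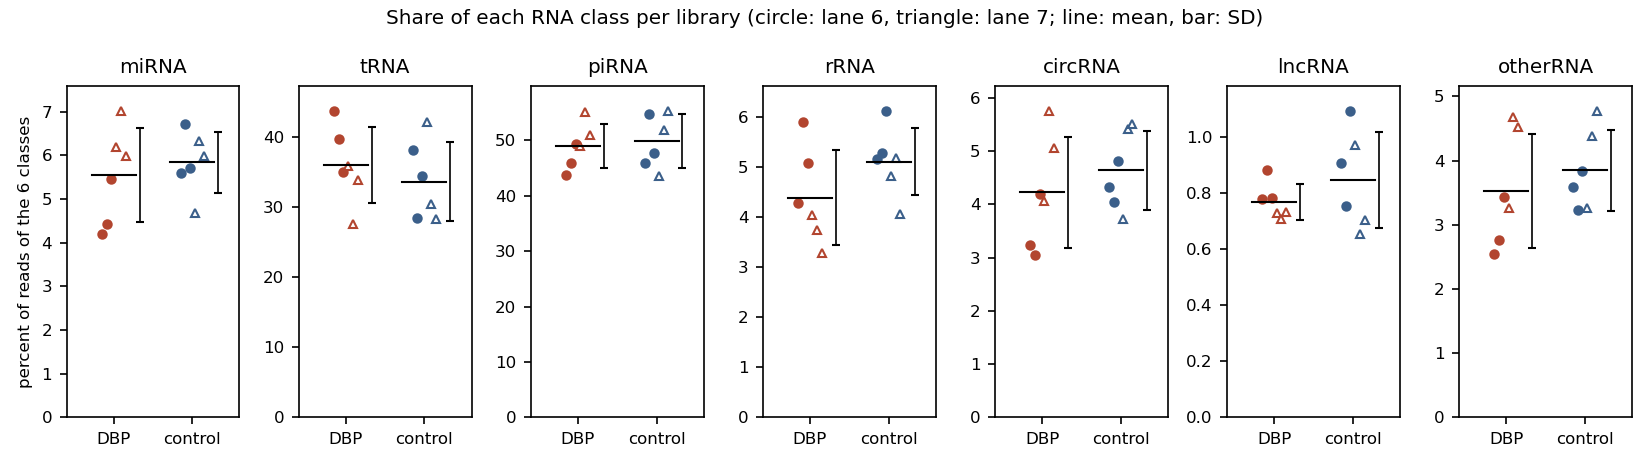
Share of each RNA class (percent of the reads of the 6 classes, vertical axis, from 0) in each DBP and control library; circles are lane 6, triangles lane 7, lines the mean and bars the SD. DBP and control libraries overlap in all 7 panels, and rRNA has 1 of 6 DBP libraries above the control mean.

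Among the classes, tRNA stood furthest from an even split. Of 340 tRNA entries tested, 300 had a log2 fold change above 0. All 58 at p under 0.05 (17.1%, beside 4.92% of all features of the 6 classes) were higher in DBP libraries. So were the 7 that met the criterion (2.06%, beside 0.724%). The median log2 fold change was 0.32, against -0.01 over all 7454 features. It was 0.70 on lane 6 and -0.09 on lane 7, and 106 of the 340 entries had the same sign on both lanes. Scaling every class by itself, which removes a shift common to a class, gave a median of 0.04, with 190 entries above 0 and 20 at p under 0.05. tRNA genes of 1 anticodon can be near-identical copies, between which the counting may have split reads, so such entries may not be independent of each other. No entry passed the adjusted threshold, and the smallest adjusted p was 0.934.

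Histidine tRNA had the largest median log2 fold change of the isotypes, 0.83. Its share of tRNA reads was 7.12, 6.696, 4.07, 3.48, 7 and 10.005% in DBP libraries 1 to 6, against 2.52, 2.58, 2.92, 4.76, 6.71 and 5.25% in control libraries 1 to 6. On lane 6 all 3 DBP libraries lay above all 3 control libraries, while on lane 7 the groups overlapped. The means were 6.395 ± 2.36% in DBP libraries and 4.12 ± 1.72% in control libraries (SD, n = 6 each), a difference of 2.27 percentage points (exact permutation within lane, p = 0.07, adjusted p = 0.986). Of 10 entries, 9 had p under 0.05 and 0 met the criterion. The most read, tRNA-His-GTG-2-8, stood at 4684 ± 2632 CPM in DBP libraries and 2599 ± 1323 CPM in control libraries, with a log2 fold change of 0.83 ± 0.36 (SE) that was 1.81 on lane 6 and -0.10 on lane 7. Under class-wise scaling the median of the isotype was 0.60 and 8 entries had p under 0.05.

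Tyrosine tRNA held 3 of the 7 tRNA entries that met the criterion, and 7 of its 9 entries had p under 0.05. tRNA-Tyr-GTA-1-1 had a lowest, median and highest value of 3.54, 4.16 and 10.5 CPM in DBP libraries, against 2.11, 2.51 and 4.37 CPM in control libraries. DBP replicate 2 was the highest and control replicate 5 the highest of its group, and the groups overlapped. The log2 fold change was 0.92 ± 0.25 (SE; adjusted p = 0.934, edgeR), 1.52 on lane 6 and 0.32 on lane 7. tRNA-Tyr-GTA-1-5 had 0.97 ± 0.29, 1.50 on lane 6 and 0.51 on lane 7. Both are low entries, and the more read tRNA-Tyr-GTA-2-1, at 47.1 ± 13.8 CPM in DBP libraries and 31.4 ± 10.8 CPM in control libraries, had a log2 fold change of 0.59 ± 0.27. As a share of tRNA reads, tyrosine gave 0.0421 ± 0.0157% in DBP libraries and 0.0318 ± 0.0163% in control libraries (exact p = 0.25, adjusted p = 0.986). Under class-wise scaling 4 of the 9 entries had p under 0.05 and 3 met the criterion. The median of the isotype was 0.30 there, beside 0.62 in the main scaling.

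Among leucine tRNAs the CAA anticodon had 4 of 4 entries at p under 0.05, with 2 at the criterion and a median log2 fold change of 0.59 (0.80 on lane 6, 0.40 on lane 7). tRNA-Leu-CAA-1-1 had a lowest, median and highest value of 54.8, 75.98 and 120.2 CPM in DBP libraries, against 38.2, 55.9 and 67.3 CPM in control libraries. On the log2 scale the fold change was 0.65 ± 0.20 (SE; adjusted p = 0.934, edgeR), and the groups overlapped. Isoleucine entries with anticodon AAT were at p under 0.05 in 10 of 11 cases, with a median of 0.53 that was 1.10 on lane 6 and -0.01 on lane 7; 4 of the 11 had the same sign on both lanes. The most read, tRNA-Ile-AAT-1-1, stood at 28.2 ± 9.78 CPM in DBP libraries and 18.3 ± 4.29 CPM in control libraries, with a log2 fold change of 1.18 on lane 6 and 0.06 on lane 7. Under class-wise scaling 0 isoleucine and 1 leucine entries had p under 0.05.

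Threonine, glycine, alanine and tryptophan had 5 of 17, 5 of 27, 4 of 32 and 4 of 8 entries at p under 0.05. These are 29.4, 18.5, 12.5 and 50%, beside 17.1% of all tRNA entries, so glycine and alanine were near the class. The medians were 0.39, 0.38, 0.43 and 0.45, beside 0.32 for all tRNA entries. Under class-wise scaling 0, 1, 1 and 0 of their entries had p under 0.05, beside 20 of all 340 tRNA entries. The medians there were 0.12, 0.04, 0.17 and 0.12, beside 0.04. In the main scaling, glycine was the isotype whose lanes were closest among these, at 0.41 and 0.33, whereas alanine was at 1.10 on lane 6 and -0.26 on lane 7. The most read glycine entries lay below 0 over both lanes, and tRNA-Gly-CCC-1-1 had a log2 fold change of -0.14 ± 0.25, 0.08 on lane 6 and -0.37 on lane 7. Arginine, the isotype with the most reads, had 0 of 24 entries at p under 0.05. Its share of tRNA reads was 45.2 ± 6.55% in DBP libraries and 47.1 ± 5.16% in control libraries (exact p = 0.535). The anticodon CCG alone took 37.97 ± 6.61% in DBP libraries and 39.98 ± 6.48% in control libraries. Glutamine, with 0 of 15 at p under 0.05, had a median of 1.32 on lane 6 and -0.48 on lane 7. Glutamate, glycine and valine, whose 5′ fragments are abundant in sperm, had shares with exact p values of 0.6, 0.835 and 0.21. Median log2 fold changes for Glu, Cys, Val, Asp, Pro, Ser, Met, SeC and initiator Met entries were above 0 in the main scaling and below 0 when each class was scaled on its own, those for Cys, Val and Asp also by library totals.

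With tRNA entries split by mean into 3 groups of like size, in the lowest, 0.697 to 34.1 CPM, 27 of 113 had p under 0.05 and the median was 0.37. In the middle group the counts were 21 of 113, with a median of 0.35, and in the highest group 10 of 114, with a median of 0.19. On lane 7 the medians were -0.06, -0.22 and -0.04 from the lowest to the highest group, and the difference between groups was not tested. The list of tRNAs known for 5′ fragments in sperm (anticodons of glutamate, glycine, valine, lysine, histidine and aspartate) summed to 115934 ± 12679 RPM (reads per 1e6 of the 6 classes) in DBP libraries and 106408 ± 7741 in control libraries. Of its 81 tested members 73 were above 0 and 16 had p under 0.05, beside 300 and 58 of all 340 tRNA entries tested (88.2% and 17.1%). The median log2 fold change of the list was 0.23, beside 0.32 for all tRNA entries tested.

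**Figure D3:**
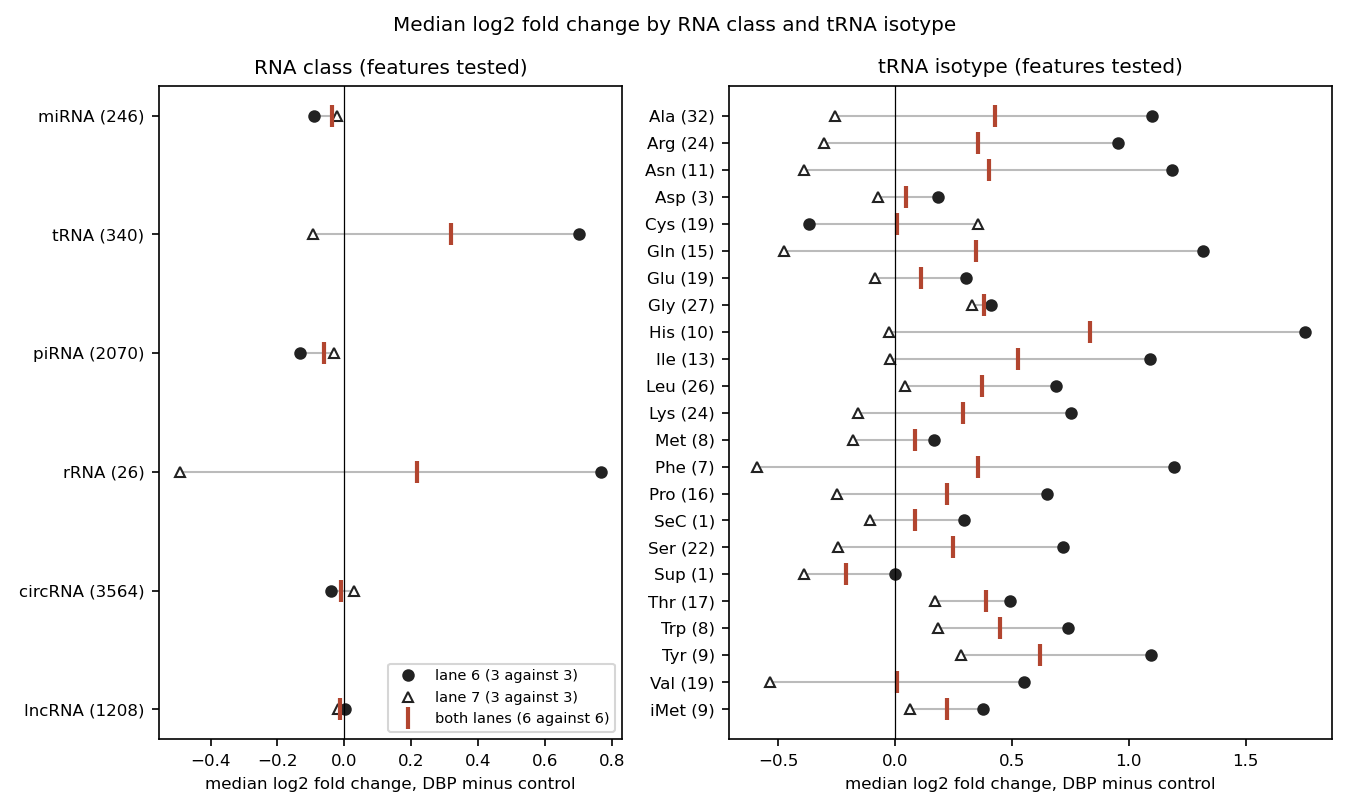
Median log2 fold change of DBP over control (horizontal axis) for each RNA class and each tRNA isotype, with the number of features tested in parentheses; black circles are lane 6, open triangles lane 7 and red marks both lanes. For tRNA entries lane 6 lies at 0.70 and lane 7 at -0.09, while Tyr, Thr, Trp, Gly, Leu and initiator Met (iMet) lie above 0 on both lanes.

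The 2 features whose DBP effect differed between lanes at an adjusted p under 0.05 were entries of alanine tRNA with the same anticodon. tRNA-Ala-TGC-5-2 had 8.26, 12.5 and 6.55 CPM in DBP libraries 1 to 3, against 2.52, 2.13 and 2.66 CPM in control libraries 1 to 3. On lane 7 it had 3.41, 1.96 and 3.21 CPM in DBP libraries 4 to 6, against 6.81, 7.03 and 3.697 CPM in control libraries 4 to 6. The groups did not overlap on either lane, and in opposite directions. The log2 fold change was 1.90 on lane 6 and -1.02 on lane 7 (adjusted p of the difference = 0.0374, edgeR). tRNA-Ala-TGC-5-3 gave 2.01 on lane 6 and -0.93 on lane 7 (adjusted p = 0.0374, edgeR).

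piRNAs guide PIWI proteins of the male germ line, and entries under that name here are references of a piRNA collection, not proof of PIWI loading. Of 2070 entries tested, 146 had p under 0.05, 49 higher and 97 lower in DBP libraries. That was 7.05%, beside 4.92% of all features of the 6 classes. The criterion was met by 31 (1.50%, beside 0.724% of all features), 14 higher and 17 lower. With each class scaled on its own it was met by 19 higher and 12 lower. The median log2 fold change was -0.06, and 0.01 under that scaling. By reference length, the 28 or 29 base entries held 9 higher and 48 lower at p under 0.05 of 657 (8.68%). At the criterion they held 3 higher and 13 lower (2.44%). Entries of 27 bases or less held 34 higher and 40 lower at p under 0.05 of 1129 (6.55%). Those of 30 bases or more held 6 and 9 of 284 (5.28%). The difference between length classes was not tested.

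A pair of entries was the most read within the piRNA class. piR-mmu-30344366, of 30 bases, had a lowest, median and highest value of 14.8, 25.3 and 37.5% of piRNA reads in DBP libraries, against 9.97, 15.5 and 32.6% in control libraries. Its log2 fold change was 0.54 ± 0.38 (SE; adjusted p = 0.934, edgeR), 1.25 on lane 6 and -0.11 on lane 7. piR-mmu-5890133, of 24 bases, had 3.26, 7.34 and 10.2% of piRNA reads in DBP libraries, against 7.22, 11.8 and 14.8% in control libraries. The log2 fold change was -0.70 ± 0.45 (adjusted p = 0.934, edgeR), -0.93 on lane 6 and -0.37 on lane 7. The groups overlapped for both.

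Of the piRNA entries with the smallest p among those lower in DBP libraries, piR-mmu-6254633 had a lowest, median and highest value of 0.679, 1.15 and 1.25 CPM in DBP libraries, against 1.34, 2.43 and 4.88 CPM in control libraries. The groups did not overlap. On the log2 scale the fold change was -1.33 ± 0.36 (SE; adjusted p = 0.934, edgeR), -1.52 on lane 6 and -1.11 on lane 7. piR-mmu-8080339 followed with -1.08 ± 0.30 and piR-mmu-8292186 with -1.23 ± 0.34, at means of 0.515 and 0.6251 CPM in DBP libraries, against 1.07 and 1.51 CPM in control libraries. These are small counts, and piR-mmu-8292186 had 0 reads in DBP replicate 1. Among those higher, piR-mmu-10824347 had a lowest, median and highest value of 5.602, 11.5 and 26.03 CPM in DBP libraries, against 3.27, 4.73 and 10.6 CPM in control libraries, with a log2 fold change of 1.23 ± 0.38, 1.83 on lane 6 and 0.80 on lane 7. piR-mmu-10967865 had 1.17 ± 0.37 and piR-mmu-8110740 0.59 ± 0.19, the last with 8.15 CPM in DBP replicate 1 and at most 4.74 CPM in the other 5 DBP libraries.

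Of 246 miRNA entries tested, 8 had p under 0.05 (3.25%, beside 4.92% of all features of the 6 classes), and 0 met the criterion. Of the 8, 1 was among the 55 mature entries and 7 among the 191 hairpins. The 95% interval of the median entry reached 0.648 on the log2 scale to either side. Of these 7 hairpins, 6 were lower and 1 higher in DBP libraries. The one with the smallest p among those lower was mir-761, with a log2 fold change of -0.85 ± 0.36 (adjusted p = 0.934, edgeR; -0.85 on lane 6 and -0.88 on lane 7), and the single one higher was mir-669e, with 0.58 ± 0.27 (adjusted p = 0.934, edgeR; 0.11 on lane 6 and 0.95 on lane 7). The most read hairpin, mir-1961, took 11.6 ± 5.87% of miRNA reads in DBP libraries and 13.6 ± 5.98% in control libraries. The share of miRNA reads on mature entries was 13.1 ± 4.16% in DBP libraries and 11.7 ± 4.01% in control libraries (exact p = 0.545).

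The let-7 family, broadly expressed in epithelia and in epididymal fluid, summed to 25.2 ± 4.83 RPM in DBP libraries and 25.95 ± 4.92 in control libraries over hairpin and mature entries, and 0 of its 13 tested entries had p under 0.05. The group of miR-99, miR-100, miR-125 and miR-10, abundant in somatic epididymis, summed to 6.61 ± 1.397 RPM in DBP libraries and 6.09 ± 1.77 in control libraries, with 0 of 6 at p under 0.05. miR-34 with miR-449, known from testis and sperm, and miR-200, of epithelia, were low, at 1.37 and 2.11 RPM in DBP libraries and 1.32 and 2.48 in control libraries, and no entry of either passed the filter on low counts. The sperm miRNAs known from paternal stress summed to 2.95 ± 0.804 RPM in DBP libraries and 3.24 ± 0.483 in control libraries, again with no entry past the filter.

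Markers of other cells that cauda fluid could hold were also summed. The smooth muscle pair miR-143 and miR-145 ranged over 14.6 to 80.6 RPM in DBP libraries and 23.4 to 62.6 in control libraries; 2 of its 4 tested entries were above 0, 2 below, and 0 had p under 0.05. Leukocyte miRNAs ranged over 1.42 to 4.17 RPM in DBP libraries and 1.31 to 2.56 in control libraries, erythrocyte miRNAs over 0.102 to 0.878 RPM in DBP libraries and 0.312 to 1.11 in control libraries, skeletal and cardiac muscle miRNAs over 0 to 2.79 RPM in DBP libraries and 0.0765 to 1.87 in control libraries, and liver miRNA over 0 to 0.915 RPM in DBP libraries and 0 to 0.459 in control libraries. None of the entries of these last lists passed the filter, and their part in any result was not tested.

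circRNAs, closed by back-splicing and so lacking free ends, had the most features tested of the 6 classes. Of 3564, 113 had p under 0.05 (3.17%, beside 4.92% of all features of the 6 classes). The criterion was met by 13 (0.365%, beside 0.724%), 6 higher and 7 lower in DBP libraries (10 and 8 with each class scaled on its own). The circRNA entry of Zmym4, a zinc finger gene, had a lowest, median and highest value of 0.157, 0.8702 and 1.27 CPM in DBP libraries, against 1.34, 1.46 and 2.08 CPM in control libraries, and the groups did not overlap. Its log2 fold change was -0.84 ± 0.26 (SE; adjusted p = 0.934, edgeR), -1.17 on lane 6 and -0.56 on lane 7. The other entries named for the smallest p and lower were that of Rnf169, a ubiquitin-binding protein of the DNA damage response, at -1.45 ± 0.44, and mmu_circ_0000713, for which the tables give no host, at -0.99 ± 0.28. Higher in DBP libraries were the entries of Tubb5, a beta-tubulin, at 0.69 ± 0.20, and of Gm15492 at 0.62 ± 0.19. All 5 had means under 4 CPM in both groups, and short reads on a circRNA reference need not cross the back-splice, so linear RNA of the host cannot be told apart from the circle.

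Of 1208 lncRNAs tested, 42 had p under 0.05 (3.48%, beside 4.92% of all features of the 6 classes). The criterion was met by 3 (0.248%, beside 0.724%), 1 higher and 2 lower. Gm40915, at chr13:37616964-37627571 (minus strand) in GRCm38, had a lowest, median and highest value of 0.602, 0.713 and 1.002 CPM in DBP libraries, against 0.962, 1.51 and 2.31 CPM in control libraries. The log2 fold change was -1.05 ± 0.28 (SE; adjusted p = 0.934, edgeR), -1.34 on lane 6 and -0.76 on lane 7, and the groups overlapped. Gm6116, at chr5:74949190-74966368 (plus strand), had -1.25 ± 0.42, and Gm12031, at chr11:20145567-20146344 (minus strand), had 0.74 ± 0.26. Of the nuclear lncRNAs, Malat1, an RNA of nuclear speckles, stood at 149.9 ± 20.4 CPM in DBP libraries and 143.99 ± 30.9 CPM in control libraries (log2 0.06 ± 0.16; -0.05 on lane 6 and 0.18 on lane 7). The most read Neat1 transcript had 0.01 ± 0.26 (0.31 on lane 6 and -0.30 on lane 7). All 6 tested transcripts of the nuclear list (Malat1, Neat1 and Xist) were above 0, beside 48.8% of lncRNA and 51.7% of otherRNA features. Transcripts of the same gene are among them, so they are not separate observations. Their median log2 fold change was 0.15 and the highest 0.57, and 1 had p under 0.05. A single transcript took 97.04 ± 2.57% of rRNA reads in DBP libraries and 96.8 ± 2.95% in control libraries. Of 26 rRNA entries tested, 0 had p under 0.05. The 5S unit n-R5s151, the entry above 0 with the smallest p, had a log2 fold change of 0.79 ± 0.50 (adjusted p = 0.934, edgeR; 2.001 on lane 6 and -0.16 on lane 7), and the mitochondrial mt-Rnr2 had -0.88 ± 0.60 (-1.59 on lane 6 and -0.19 on lane 7).

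In otherRNA, biotypes were taken from GENCODE M21 (GRCm38), and no biotype share passed the permutation test. As shares of otherRNA reads, antisense transcripts took 44.8 ± 7.504% in DBP libraries and 45.7 ± 7.05% in control libraries (SD, n = 6 each; exact p = 0.8), misc_RNA, mostly the 7SL RNAs Rn7s1 and Rn7s2, 23.04 ± 3.42% in DBP libraries and 22.4 ± 3.38% in control libraries (exact p = 0.76), and snoRNA 3.91 ± 1.29% in DBP libraries and 3.78 ± 1.39% in control libraries (exact p = 0.815). Over the 19 biotypes the exact p ran from 0.185 to 0.975. By feature, 88 of 2310 antisense transcripts had p under 0.05 (3.81%), 50 higher and 38 lower. The criterion was met by 12 of them (0.519%, beside 0.348% of all otherRNA features), 8 higher and 4 lower. The processed transcripts gave 18 of 402 (4.48%) and retained introns 6 of 253 (2.37%) at p under 0.05, beside 3.99% of all otherRNA features.

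snoRNAs guide the modification of rRNA. All 9 snoRNAs with p under 0.05, of 197 tested (4.57%), were higher in DBP libraries, but the median log2 fold change of the biotype was 0.04 (-0.05 on lane 6, 0.15 on lane 7). The most read C/D box members, Snord15b and Snord118, had 0.04 ± 0.21 (-0.37 on lane 6 and 0.43 on lane 7) and 0.28 ± 0.26 (0.18 on lane 6 and 0.39 on lane 7). Among 228 sense intronic transcripts 3 were higher and 8 lower at p under 0.05 (4.82%, beside 3.99% of all otherRNA features). Of 83 spliceosomal snRNAs 2 had p under 0.05 (2.41%), and of 15 scaRNAs 0. The ribozyme RNAs Rpph1, of RNase P, and Rmrp, of RNase MRP, stood at 7405 ± 1801 CPM in DBP libraries and 6609 ± 997 CPM in control libraries, and at 4475 ± 2678 CPM in DBP libraries and 4319.8 ± 3998 CPM in control libraries. The most read sense overlapping transcript, Gm17108, had a log2 fold change of -0.10 ± 0.49 (0.88 on lane 6 and -0.93 on lane 7). Sox2ot, a less read member from the Sox2 locus, stood at 309.8 ± 116 CPM in DBP libraries and 489 ± 146 CPM in control libraries. Its log2 fold change was -0.69 ± 0.33 (adjusted p = 0.995, edgeR). The biotype took 1.32 ± 0.51% of otherRNA reads in DBP libraries and 1.27 ± 0.69% in control libraries. These values and those below are CPM of the otherRNA table.

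The smallest p of the features tested belonged to Gm17182, an antisense transcript at chr5:53047687-53049188 (minus strand) in GRCm38 that lies opposite Slc34a2, a sodium-dependent phosphate transporter of epithelia. Its lowest, median and highest values were 39.9, 53.3 and 54.8 CPM in DBP libraries, against 17.8, 27.6 and 40.5 CPM in control libraries. All 6 DBP libraries lay above the control mean, and the lowest of them just under the highest control library. The log2 fold change was 0.89 ± 0.21 (SE; adjusted p = 0.867, edgeR), 0.75 on lane 6 and 1.01 on lane 7. Because the counting strand is not stated, its reads cannot be told apart from those of Slc34a2. Rab10os, at chr12:3235504-3241410 (plus strand), had 54.5, 56.6 and 71.9 CPM in DBP libraries, against 32.2, 36.8 and 49.4 CPM in control libraries, and the groups did not overlap. On the log2 scale the fold change was 0.61 ± 0.17 (adjusted p = 0.995, edgeR), 0.53 on lane 6 and 0.69 on lane 7. Gm26885, at chr17:29461195-29464759 (minus strand), had 0.90 ± 0.26.

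Among those lower in DBP libraries at the criterion were Gm16726, at chr19:46264539-46267669 (minus strand) opposite Gbf1, an exchange factor for ARF GTPases at the Golgi, and Gm10558, at chr1:66322276-66328796 (minus strand) opposite Map2, a microtubule-associated protein. Gm16726 had -0.76 ± 0.23 and Gm10558 -0.97 ± 0.31 on the log2 scale, and lane values were -0.94 on lane 6 and -0.63 on lane 7 for Gm16726 and -1.52 on lane 6 and -0.53 on lane 7 for Gm10558. Gm10558 ranged over 13.6 to 38.5 CPM in DBP libraries and 29.2 to 75.2 CPM in control libraries. Among the imprinted lncRNAs, 4 of 13 tested transcripts were above 0 and 9 below, with 1 at p under 0.05. Peg13, a paternally expressed RNA, stood at 195 ± 76.8 CPM in DBP libraries and 128 ± 29.03 CPM in control libraries (log2 0.54 ± 0.22, 1.10 on lane 6 and 0.06 on lane 7; adjusted p = 0.995, edgeR), and Kcnq1ot1, which silences its neighbours on the paternal allele, had -0.14 ± 0.15.

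**Figure D4:**
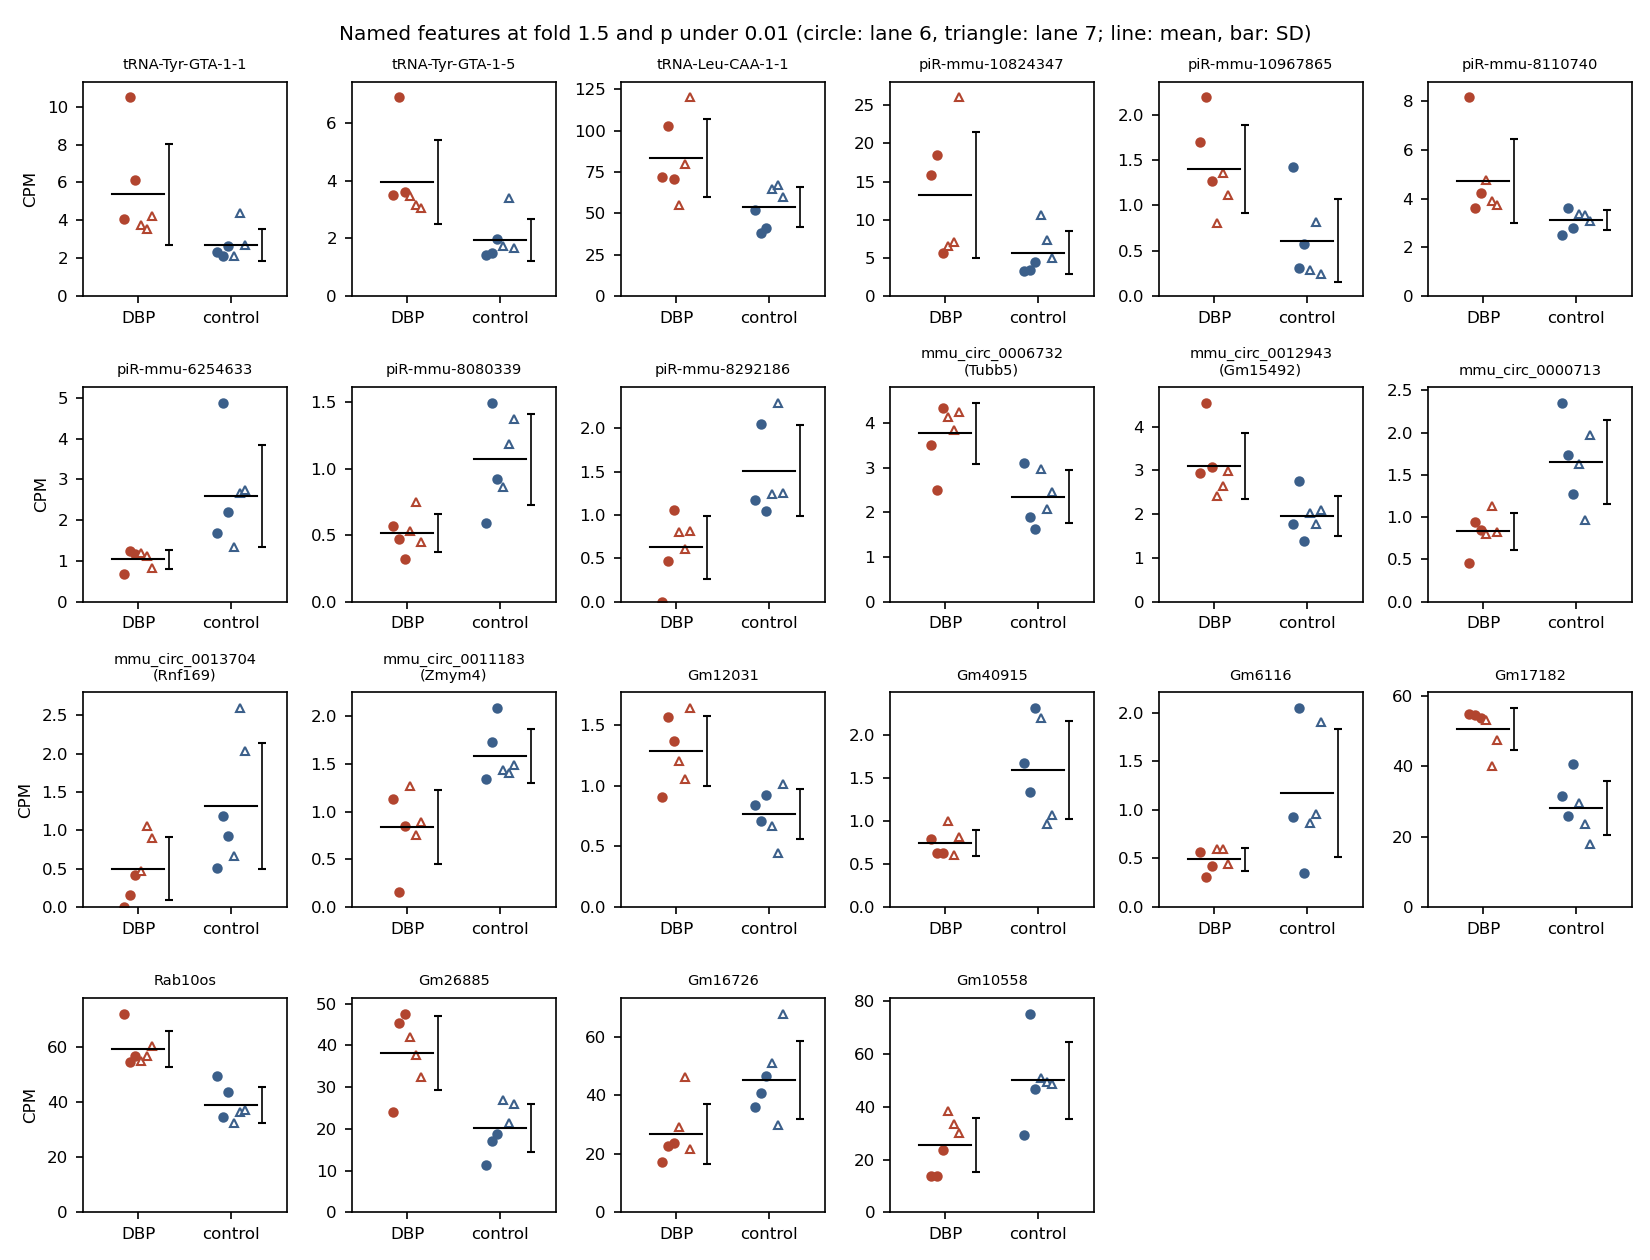
CPM (vertical axes, each from 0) in each DBP and control library for the 22 named features that met the fold and unadjusted p criterion; circles are lane 6, triangles lane 7, lines the mean and bars the SD. DBP and control libraries do not overlap for piR-mmu-6254633, the Zmym4 circRNA and Rab10os, and the groups overlap in panels such as tRNA-Tyr-GTA-1-1, where control replicate 5 reaches 4.37 CPM.

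Diversity within a class was given as the effective number of features, the exponential of the Shannon entropy. It was 33.3 ± 10.9 in DBP libraries and 30.2 ± 10.6 in control libraries for tRNA (SD, n = 6 each; exact p = 0.53), 66.04 ± 28.9 in DBP libraries and 77.4 ± 29.4 in control libraries for piRNA (exact p = 0.455), and 273 ± 58.5 in DBP libraries and 232 ± 67.1 in control libraries for circRNA (exact p = 0.31). The remaining classes had exact p values from 0.695 to 0.94, and over all 56 single-value tests the adjusted p was 0.986 or more.

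The mice given DBP and DEHP together, set against those given DEHP alone, offer the same addition of DBP in libraries that enter the values above only through the shared fit (its filter, scaling, lane term and estimate of spread). There the median log2 fold change of tRNA entries was -0.03, Gm17182 had 0.01 ± 0.21, and tRNA-Tyr-GTA-1-1 0.13 ± 0.25 (SE). Of the named features that met the criterion for DBP alone, 7 of the 12 higher ones lay above 0 there, up to 0.39 ± 0.26 for Gm26885, and 7 of the 10 lower ones lay below 0, down to -0.60 ± 0.41 for Gm6116. Gm10558, lower after DBP alone, had 0.66 ± 0.30 there. The difference between the effects of DBP with and without DEHP passed an adjusted p under 0.05 for 0 features (edgeR; 301 of the 6 classes had an unadjusted p under 0.05).

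The number of features at the criterion depended on single libraries. Without control replicate 4 it was 165 in the 6 classes and 45 in otherRNA, without DBP replicate 4 it was 111 and 32, and without control replicate 2 it was 24 and 12, beside 54 and 13 with all libraries. Of the 54 features, 49 were among the 165 found without control replicate 4, and 18 among the 24 found without control replicate 2. Of the 22 named features that met the criterion, 9 met it whichever library was left out, and 8 under every setting that tested them: piR-mmu-8080339, piR-mmu-8292186, piR-mmu-6254633, tRNA-Tyr-GTA-1-1, mmu_circ_0000713, Gm40915, Gm17182 and Gm26885. Fitted on the 12 libraries alone, piR-mmu-8080339 did not pass the filter on low counts and was not tested. Without the filter on low counts 71 features of the 6 classes passed an adjusted p under 0.05, 58 of them piRNA entries, of which 4 were higher in DBP libraries. Of these 71, 68 were also tested with the filter on, where 0 passed.

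**Figure D5:**
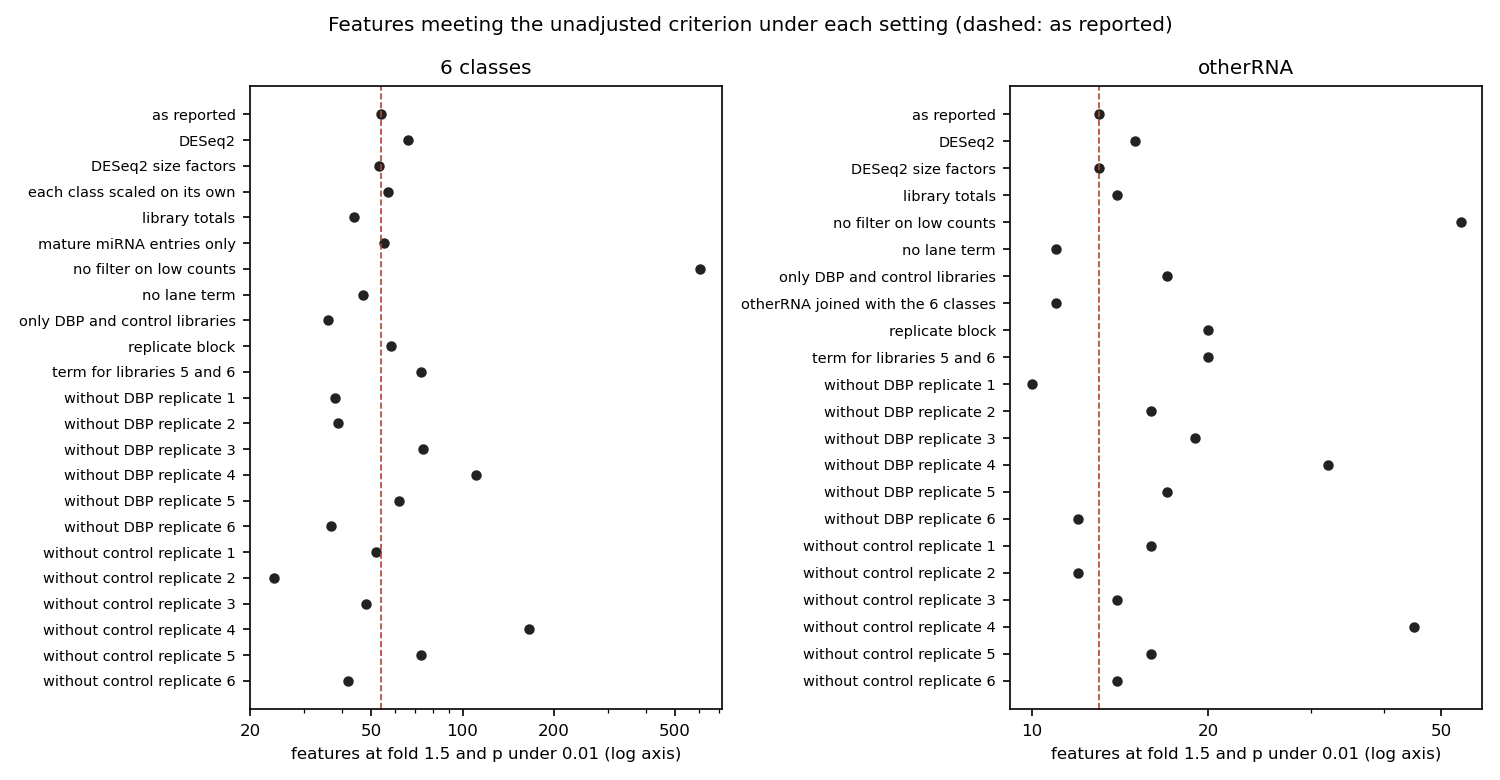
Number of features at fold 1.5 and unadjusted p under 0.01 (horizontal axis, logarithmic) under each setting (rows), in the 6 classes and in otherRNA; the dashed line is the count as reported, 54 and 13. The count without the filter, 606 and 54, and the count without control replicate 4, 165 and 45, lie farthest to the right.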

How the data were processed

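The deposited tables hold counts, whole numbers of reads per reference that the authors made for each library and class; the row without a name and the unmapped column held 0 reads. The submitters' processing notes name cutadapt, STAR 2.7.6a and edgeR. Not given in the sources used here are the genome build, the counting strand, the treatment of reads with several matches, and whether the criterion used an adjusted p.

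The 6 classes formed a single matrix. Low counts were removed by filterByExpr with the group given, and the rest were scaled by TMM (factors 0.62496 to 1.31) and fitted with edgeR 4.0.16 (quasi-likelihood, two-sided; R 4.3.3) with terms for group and lane over all 24 libraries, with a biological coefficient of variation of 34.6%. otherRNA was fitted apart (28.6%). SE values come from the log2 fold change and its F. Transcripts were matched to GENCODE M21 (matched: rRNA 99.2%, otherRNA 98.0%, lncRNA 96.1%). Single values per library were tested in Python 3.11.15 with numpy 2.4.6 and pandas 2.3.3. The alternatives included DESeq2 1.42.0, other scalings, no filter, a replicate block and each library left out. The fit was tested on simulated data. Named were, per class and direction, up to 3 features with the smallest p at the criterion, else the 1 with the smallest p, with the most read features and list members; some features that the rule names are not reported here. Members, lists and rules were chosen with earlier results of these data known. The criterion used fold 1.5 and p 0.01.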

Additional observations from a re-analysis of the deposited data

Results flagged for a closer look

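In 8 of 114 groups of 6 libraries a single library stood apart by Dixon's test at the 95% level, and chance flags about 1 group in 20. For tRNA-Tyr-GTA-1-1, DBP replicate 2 had 10.5 CPM and control replicate 5 had 4.37 CPM. For tRNA-Tyr-GTA-1-5, DBP replicate 2 had 6.89 CPM and control replicate 5 had 3.405 CPM. DBP replicate 2 was also highest of its group for the circRNA entry mmu_circ_0012943, at 4.54 CPM. DBP replicate 1 was highest for piR-mmu-8110740, at 8.15 CPM, and for Rab10os (ENSMUST00000178074.7), at 71.9 CPM of otherRNA. Control replicate 2 had the lowest effective number of miRNA entries of its group, 14.99.

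The effect of DBP differed between lanes by the edgeR interaction term for tRNA-Ala-TGC-5-2, with -2.92 on the log2 scale (lane 7 minus lane 6), and for tRNA-Ala-TGC-5-3, with -2.94.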

How the results depend on the processing

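No alternative with the filter on low counts gave a feature at an adjusted p under 0.05. These alternatives were DESeq2 and its size factors, library totals, each class scaled on its own, mature miRNA entries only, otherRNA joined with the 6 classes, no lane term, the 12 libraries alone, a term for libraries 5 and 6, the replicate block, and each of the 12 libraries left out. Without the filter 71 features of the 6 classes passed, against 0 with it, and those at the criterion numbered 606 against 54 in the 6 classes and 54 against 13 in otherRNA. The filter was the only change, and 60115 features were tested without it. With the term for libraries 5 and 6 otherRNA had 20 at the criterion. Whether the shared numbers pair the libraries could not be settled from these values. In the 6 classes, deviations of same-numbered DBP and control libraries from their group means had r of 0.4596, -0.252, 0.205, -0.192, 0.489 and 0.555 for numbers 1 to 6. Here 3 of 6 correlated best with their own number. With lane means also removed, r was 0.195, -0.180, -0.142, 0.473, 0.221 and 0.038. With a replicate block 58 features of the 6 classes and 20 of otherRNA met the criterion, and 0 passed the adjusted threshold. With single libraries left out, the criterion was met by 24 to 165 features of the 6 classes and 10 to 45 of otherRNA.

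None of the 30 single values recomputed here had a p that passed adjustment in the report. On lane 6 alone, where no p could be below 0.1, DBP minus control was 1.62 for antisense, -1.05 for misc_RNA, -0.0654 for processed_transcript, 0.159 for protein_coding, -0.235 for retained_intron and -0.497 for snoRNA (percentage points of otherRNA reads), and in effective number of features -18.1 for lncRNA and -39.6 for otherRNA. On lane 7 alone it was 0.7398 for miRNA, -1.16 for tRNA, 1.395 for piRNA, 0.0739 for circRNA and 0.0107 for otherRNA (percentage points of the 6 classes), 1.15 for Glu, 0.7898 for Gly, 0.166 for Met and -0.0446 for Pro (of tRNA reads), 0.108 for sense_intronic (of otherRNA reads), -1.56 for mature share (of miRNA reads), and in effective number -1.404 for miRNA, 2.22 for piRNA and 0.0345 for rRNA. As RPM (reads per 1e6) of the 6 classes it was 4745 for Arg, 1119.8 for Glu and 419 for Gly, and -369 for misc_RNA, -174 for not in GENCODE M21, -116 for processed_transcript, -139 for retained_intron and -26.4 for snoRNA. With the most read feature of each class left out it was 0.0469 for miRNA and 0.000539 for lncRNA, 0.213 for Arg, -0.0527 for not in GENCODE M21 and -0.0201 for retained_intron, and in effective number -0.151 for miRNA, 17.1 for piRNA and 1.62 for rRNA. Exchanging labels over all 12 libraries leaves every difference as it is, because the lanes are balanced, so that only p could change. No p passed adjustment there. The cause of the changes of sign listed above was not tested.

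With single libraries left out, differences that changed sign ranged over -2.54 to 0.457 for piRNA (class share), -1.47 to 0.147 for Glu, -1.55 to 0.775 for Gly and -0.489 to 0.0311 for Met (of tRNA reads), -0.0822 to 0.199 for processed_transcript, -0.328 to 0.238 for protein_coding, -0.116 to 0.185 for retained_intron, -0.618 to 0.9802 for not in GENCODE M21, -2.64 to 1.78 for antisense, -0.721 to 1.49 for misc_RNA, -0.296 to 0.558 for snoRNA and -0.297 to 0.0346 for sense_intronic (of otherRNA reads), and in effective number -17.6 to 33.5 for otherRNA, -0.0477 to 0.0545 for rRNA, -0.535 to 1.33 for miRNA, -0.6699 to 6.33 for tRNA and -37.4 to 116 for lncRNA. For named features 278 values kept their side of the criterion with a library left out, 46 lost it and none changed sign. Precision is limited by 6 libraries a group and by low counts. These are entries of a few CPM, as for the named piRNA, circRNA and lncRNA entries, and the named otherRNA entries, whose larger CPM rest on similarly few reads.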

Other observations

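As shares of all piRNA reads, entries of 30 bases or more made up 40.6 ± 6.56% in DBP libraries and 31.9 ± 7.35% in control libraries (SD, n = 6 each). Entries of 27 bases or less made up 42.7 ± 4.39% in DBP libraries and 49.7 ± 5.29% in control libraries, and those of 28 or 29 bases 16.6 ± 4.47% in DBP libraries and 18.5 ± 4.22% in control libraries. The longest group ranged from 32.8 to 50.2% in DBP libraries and from 23.2 to 44.5% in control libraries, so the groups overlapped. The entry piR-mmu-30344366 alone held 26.2 ± 8.08% in DBP libraries and 17.6 ± 8.396% in control libraries. No test was run on these shares.

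Of the piRNA entries that passed an adjusted p under 0.05 only without the filter on low counts, piR-mmu-5869149 had 166469 reads over the 12 libraries and a log2 fold change of -2.01 there. With the filter it did not pass, and its log2 fold change was -3.40 on lane 6 and -0.08 on lane 7. piR-mmu-1509545 had -1.83 without the filter and, with it, -1.77 over both lanes, -3.48 on lane 6 and -0.37 on lane 7. Both were singled out after their values were seen.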
